A study of Mus musculus with 8 samples.

Results

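The 36 genes described here encode serum response factor, the actins, and the proteins that bundle, load, anchor and turn over actin filaments, a set that includes many classical targets of the SRF-MRTF pathway. They were picked by name from the 22026 genes to which the 65042 transcripts of each file add up, and 174 of those transcripts belong to them. The data are 8 bulk RNA sequencing libraries of 4T1 and TS/A, 2 mouse mammary carcinoma cell lines of BALB/c origin, with 2 libraries for each line and vector. By the sample characteristics, each line carried either an empty virus vector or a vector expressing Gpr56 (gene symbol Adgrg1), an adhesion receptor of the G protein-coupled class. The titles disagree: they call every sample empty-vector, under either a control or a collagen III condition, and the study description says that transduced cells of both lines were kept for 72 h with type III collagen, a ligand of Gpr56. All groups shared RPMI medium with 10% FCS. The groups below follow the characteristics, and the vector and the collagen condition cannot be told apart in them. No label states whether paired libraries are separate cultures. The p-values below therefore reflect only the scatter among the libraries of each fit, the 4 of a line or all 8, which may be technical.

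SRF is a transcription factor that binds a short DNA element, the CArG box, and is steered by cofactors. Its MRTF cofactors are held in the cytoplasm by unpolymerised actin. When actin is drawn into filaments, MRTFs are released, enter the nucleus and raise genes for actin and its partners, so that the pathway reads the state of the cytoskeleton it builds. In carcinoma cells the same proteins form the stress fibres and focal adhesions used in spreading and migration.

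The libraries held between 10510569 and 25959142 counted reads, and the 36 genes took 1.60% to 1.63% of them in 4T1 and 1.08% to 1.40% in TS/A. As a check of the labels, Adgrg1 stood at 2.53 and 2.77 CPM (a gene's reads relative to the library total, scaled by TMM over the 8 libraries) in empty-vector 4T1 and at 90.5 and 100.1 CPM in Gpr56 4T1. In TS/A it stood at 34.8 and 16.3 CPM in empty-vector cells and at 22.6 and 13.3 CPM in libraries labelled Gpr56, so the 2 TS/A groups overlapped, against their labels (-0.51, SE 0.41, edgeR adjusted p = 1.0). Without the second TS/A empty-vector library it was lower in those labelled Gpr56 (log2 fold change -0.93). That second library, at 16.3 CPM, lay between the 2 libraries labelled Gpr56. Directions in TS/A are therefore those of the libraries labelled so. The 2 TS/A empty-vector libraries differed far more than the other pairs of replicates (chi-square per degree of freedom 123, against 18.05 for the other TS/A pair and 3.64 and 5.54 in 4T1). Counts of members called between the lines are given with and without each of those 2 libraries.

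The transcripts read in both lines were mostly those of the non-muscle actin cytoskeleton. In RPKM (reads relative to transcript length and library total, summed over a gene's transcripts, the scale on which genes can be compared), the cytoplasmic actins Actb and Actg1 and the filament regulators Cfl1 (cofilin, which severs filaments) and Pfn1 (profilin, which feeds actin monomers to growing ends) took the first 4 places in each of the 4 groups. Actb averaged 1685 ± 44.0 RPKM and Actg1 1828 ± 4.25 RPKM in empty-vector 4T1 (SD, n = 2), followed by Cfl1 at 1052 ± 35.2 and Pfn1 at 553 ± 16.4 RPKM. In empty-vector TS/A the same genes stood at 1208 ± 153, 1139 ± 288, 849.7 ± 107 and 669.7 ± 38.5 RPKM. Within the spread of the TS/A libraries the order of Actb and Actg1 was not resolved. The tropomyosin Tpm1, which coats actin filaments, followed with 435 ± 1.57 RPKM in 4T1 and 331 ± 24.7 RPKM in TS/A, and its relative Tpm4 stood at 293 ± 6.51 and 275 ± 1.74 RPKM. Tagln2, the transgelin of non-muscle cells, ranked between them in empty-vector 4T1 at 398 ± 21.9 RPKM. Srf itself ranked between 20 and 21 of the 36, with 24.7 ± 2.82 RPKM in 4T1 and 19.6 ± 4.44 RPKM in empty-vector TS/A. At the CPM scale 25 of the 36 genes were at or above 10 CPM in every library and 16 at or above 100 CPM.

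Genes of the muscle version of the cytoskeleton were scarcely read. A set of 9 of the 36 stayed under 2 CPM in every library, and together they had 29 to 58 reads per library. They were the muscle actins Acta1, Acta2 and Actg2, the smooth muscle genes Cnn1 (calponin), Tagln (transgelin) and Myl9 (a myosin light chain), the tropomyosin Tpm2, and the LIM-domain genes Tgfb1i1 and Fhl1. Acta2, the smooth muscle actin that marks myofibroblasts, was read at 0.225 and 0.235 CPM in empty-vector 4T1, 0 and 0.375 CPM in Gpr56 cells, 0.779 and 1.08 CPM in empty-vector TS/A and 1.14 and 0.738 CPM in TS/A labelled Gpr56. Its TS/A values all lay above its 4T1 values, on 0 to 30 reads per library. Between the empty-vector libraries of the lines it did not pass (1.97, SE 0.82, edgeR adjusted p = 0.0777). Acta1, skeletal muscle actin, had 0 reads in empty-vector 4T1, 3 and 5 in Gpr56 cells, 3 and 2 in empty-vector TS/A and 0 in TS/A labelled Gpr56. Actg2, enteric smooth muscle actin, had 0 to 2 reads in any library, and Fhl1 had 0 in all 8. A count of 0 allows up to 3 reads, which is 0.116 to 0.285 CPM depending on the library, for counting error only. Actb and Actg1 together made up 99.966% to 99.997% of the summed RPKM of the 5 actins. Actin genes are near-identical to one another and have processed copies in the genome, so how reads were split among them is uncertain. The 8 skeletal muscle markers summed to 0.169 to 0.943 CPM per library, and 8 smooth muscle and pericyte markers to 1.03 to 1.5 CPM in 4T1 and 2.64 to 9.92 CPM in TS/A. Most of the TS/A sum was Pdgfrb, a pericyte receptor, at 8.94 and 1.94 CPM in empty-vector TS/A and 5.30 and 4.25 CPM in TS/A labelled Gpr56, against 0 to 0.141 CPM in 4T1.

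**Figure D1:**
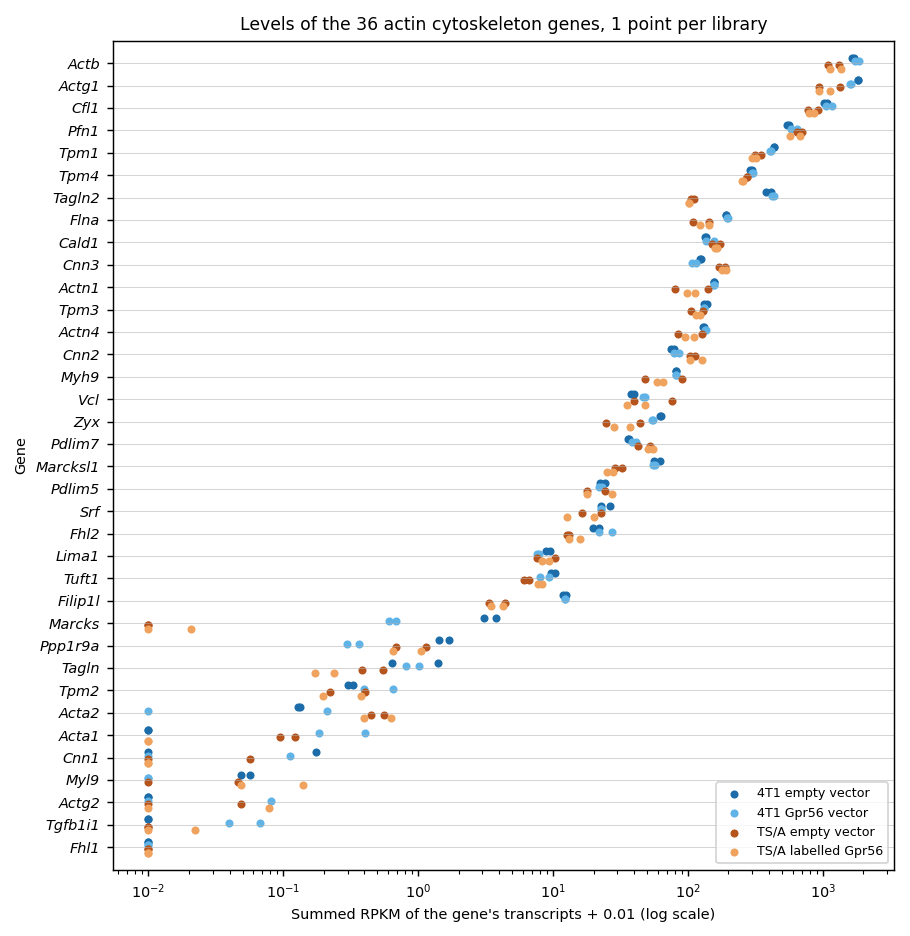
Summed RPKM plus 0.01 (log scale, x axis) of each of the 36 genes (y axis, ordered by the mean of the 8 libraries), 1 point per library, coloured by group. Actb, Actg1, Cfl1 and Pfn1 lie at the top and the 9 scarce genes at the bottom, where points at 0.01 are libraries with no read; Marcks, Tagln2 and Filip1l show the widest gaps between the lines among genes above that floor.

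The element that SRF reads was searched in the promoters. In the RefSeq table (GRCm38.p6) each window holds 300 bases, 250 before the annotated start and 50 after it, and the CArG box was searched as CC, 6 bases that are A or T, then GG, which reads as the same pattern on both strands. Actb, Actg2, Tagln, Tgfb1i1, Marcks and Tuft1 have no window and were not searched. A box was found for 10 of the 30 members that have a window (33.3%), against 1.81% of all 27025 genes with one. Counted by window it was 11 of 37 (29.7%) against 1.63% of 32851. Since many members are on the list as known SRF targets, this excess is a property of the list. All 11 windows hold their boxes before the start, between base -227 and base -22 counted from it. A match is a string of letters and was not tested for binding here. The members whose results are told below are printed first, each as the stretch before any annotated exon of the 36 genes, 5′ to 3′ on the gene's strand, with the box in capitals. Exons of other genes were not checked. Srf, whose own promoter holds 2 boxes, lies at chr17:46556176-46556412 (minus strand), Actg1 at chr11:120348543-120348745 (minus strand), Cnn2 at chr10:79988350-79988583 (plus strand) and Vcl at chr14:20929148-20929397 (plus strand).
Srf: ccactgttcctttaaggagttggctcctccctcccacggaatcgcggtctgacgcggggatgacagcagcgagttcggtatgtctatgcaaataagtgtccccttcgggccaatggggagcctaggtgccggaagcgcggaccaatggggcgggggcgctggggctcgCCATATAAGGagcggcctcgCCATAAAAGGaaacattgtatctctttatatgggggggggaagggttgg
Actg1: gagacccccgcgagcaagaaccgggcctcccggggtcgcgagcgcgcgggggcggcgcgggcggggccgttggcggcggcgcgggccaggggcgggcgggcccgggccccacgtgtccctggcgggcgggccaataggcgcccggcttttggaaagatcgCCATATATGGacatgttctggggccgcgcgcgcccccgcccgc
Cnn2: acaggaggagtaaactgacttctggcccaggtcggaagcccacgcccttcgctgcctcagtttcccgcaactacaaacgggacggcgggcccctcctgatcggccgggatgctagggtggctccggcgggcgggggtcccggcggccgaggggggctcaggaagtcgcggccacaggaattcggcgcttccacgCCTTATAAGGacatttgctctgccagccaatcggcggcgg
Vcl: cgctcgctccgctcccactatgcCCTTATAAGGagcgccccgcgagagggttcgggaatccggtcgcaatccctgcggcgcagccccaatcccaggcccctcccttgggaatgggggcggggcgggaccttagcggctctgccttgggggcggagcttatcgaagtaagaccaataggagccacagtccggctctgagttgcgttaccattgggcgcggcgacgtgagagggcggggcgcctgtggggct

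The other boxes are shown with 20 bases on each side, to compare the cores between genes read well in these cells and genes that were scarcely read. Lima1 (chr15:99820167-99820216, minus strand, within the gene's span and in no annotated exon of the 36 genes), Fhl2 (its second start, chr1:43163963-43164012, minus strand) and Filip1l (its second start, chr16:57549160-57549209, plus strand) were expressed. Acta1 (chr8:123894819-123894868, minus strand), Myl9 (chr2:156775283-156775332, plus strand) and Fhl1 (chrX:56779561-56779610, plus strand) were at the floor. The stretches of Fhl2, Filip1l and Fhl1 also lie within the span of their gene. A further box of Fhl2, at its first start, lies within an annotated exon.
Lima1: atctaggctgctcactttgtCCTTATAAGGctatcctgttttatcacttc
Fhl2: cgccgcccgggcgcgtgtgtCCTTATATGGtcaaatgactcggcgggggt
Filip1l: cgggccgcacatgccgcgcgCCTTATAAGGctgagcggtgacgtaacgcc
Acta1: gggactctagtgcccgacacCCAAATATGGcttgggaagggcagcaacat
Myl9: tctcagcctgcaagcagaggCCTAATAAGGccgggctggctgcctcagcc
Fhl1: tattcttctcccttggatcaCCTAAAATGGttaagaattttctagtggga

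The core CCTTATAAGG is shared letter for letter by 4 genes, Cnn2, Lima1, Vcl and Filip1l, and each of the other windows has a first core of its own. Those 4 genes did not move alike. In Gpr56 4T1, Vcl rose, Lima1 fell, and Cnn2 and Filip1l had log2 fold changes of 0.00 and -0.02. The 7 members with a box that were tested in 4T1 had a median log2 fold change of -0.02, with 1 rise and 2 falls, and the 17 with a window and no box one of -0.04, with 0 rises and 4 falls. Over all genes tested there, 20 of the 136 with a box rose and 23 fell, and of the 8810 with a window and no box 999 rose and 942 fell.

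**Figure D2:**
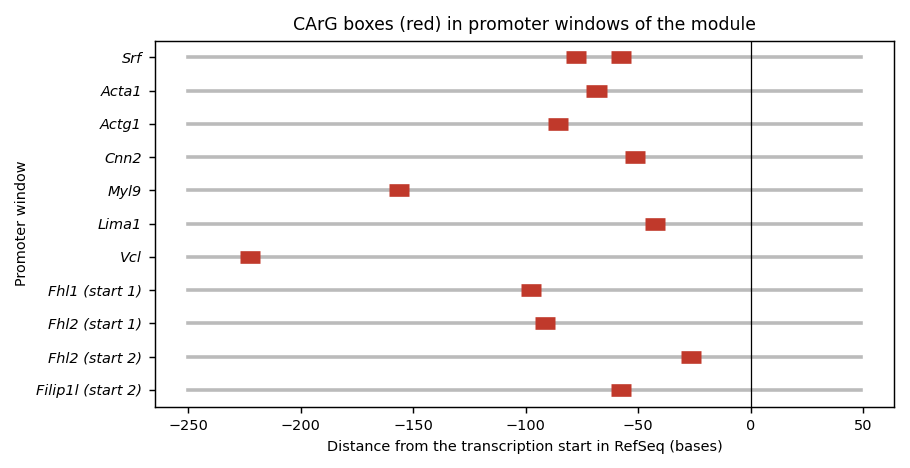
Position of CArG boxes (red) in the promoter windows of the 10 genes that hold one, as distance in bases from the RefSeq transcription start (x axis; the black line is the start, the grey bar the window of 300 bases). Every box lies before the start, and Srf has 2.

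The first comparison set Gpr56 4T1 against empty-vector 4T1. Marcks and Ppp1r9a, which link filaments to the membrane and to a phosphatase, had log2 fold changes of -2.43 and -2.30, and the other 6 genes past the threshold moved by 0.15 to 0.29 on the log2 scale. Of 28 members tested, 1 rose (Vcl) and 7 fell (edgeR quasi-likelihood test on the 4 libraries of 4T1, Benjamini-Hochberg adjusted p under 0.05 over 11361 genes). The 8 members not tested were the scarce genes other than Tagln. Called members made up 28.6%, against 22.8% of all tested genes, and falls 25% against 11.3%, rises 3.57% against 11.5%. The members were chosen with earlier results of these data known, Marcks and Ppp1r9a among them. The excess of falls may in part follow from that choice and is not a test of the set. At an unadjusted p under 0.05 there were 11 members (39.3%, against 35.4% of genes). The groups did not overlap for 18 of the 28 members, 15 lower and 3 higher, which is 64.3% against 61.7% of all genes (31.2% lower, 30.5% higher). The median log2 fold change was -0.04 over the members and 0.00 over all genes. In bulk RNA, fewer cells that carry a transcript and less of it per cell cannot be told apart.

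Marcks, a membrane-bound substrate of protein kinase C that cross-links actin at the cell cortex, fell 5.39-fold. It was read at 13.3 and 16.5 CPM in empty-vector cells (236 and 351 reads) and at 2.90 and 2.53 CPM in Gpr56 cells (62 and 27 reads). Both Gpr56 libraries lay below both controls, and the log2 fold change was -2.43 (SE 0.19, edgeR adjusted p = 5.05e-07). Its relative Marcksl1, which binds actin and calmodulin in the same way, stood at 96.9 and 106.7 CPM against 92.4 and 95.1 CPM and did not pass (-0.12, SE 0.06, edgeR adjusted p = 0.19). Ppp1r9a, or neurabin, which tethers protein phosphatase 1 to filaments, went from 12.4 and 10.2 CPM to 2.48 and 1.97 CPM. That is a 4.91-fold fall (log2 fold change -2.30, SE 0.21, edgeR adjusted p = 2.88e-06) with no overlap between the groups. Marcks lies on chromosome 10 (37133375 to 37138920, minus strand, GENCODE M21 on GRCm38) and Ppp1r9a on chromosome 6 (4902917 to 5165661, plus strand). Both remained past the threshold under each alternative run for this comparison, with log2 fold changes from -2.58 to -2.27 for Marcks and from -2.69 to -2.16 for Ppp1r9a. Among the members they alone passed in a fit of all 8 libraries together (0.226% of genes called).

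Of the filament proper, Actg1 fell and Actb did not pass. Actg1 was read at 3585 and 3633 CPM in empty-vector cells and at 3155 and 3053 CPM in Gpr56 cells, with no overlap (-0.22, SE 0.05, edgeR adjusted p = 0.00356). Actb stood at 3124 and 3339 CPM against 3361 and 3359 CPM (0.06, SE 0.05, edgeR adjusted p = 0.461). Actb was therefore 47.5% and 48.5% of the summed actin RPKM in empty-vector cells and 52.1% and 53.2% in Gpr56 cells. By the most-read transcript Actg1 differed by -0.14. The Actg1 call was lost without either empty-vector library (edgeR adjusted p = 0.0632 and 0.0967). Srf itself was lower in both Gpr56 libraries, at 58.4 and 55.1 CPM against 60.7 and 65.4 CPM, and did not pass (-0.15, SE 0.07, edgeR adjusted p = 0.141).

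Among the tropomyosins and thin-filament proteins 2 of 8 tested fell. Cnn3, the acidic calponin of non-muscle cells, went from 254 and 258.5 CPM to 219.5 and 213 CPM with no overlap (-0.25, SE 0.05, edgeR adjusted p = 0.00413). Without the second empty-vector library its adjusted p was 0.0648. Tpm1 went from 808 and 809 CPM to 738 and 722 CPM, also with no overlap (-0.15, SE 0.05, edgeR adjusted p = 0.0455). Of the 8 calls in 4T1 it held under the fewest alternatives (5 of 13). It was lost with library totals as the scale (adjusted p = 0.111) and in the DESeq2 Wald test (0.0514). It was also lost without either empty-vector library (0.288 and 0.309) and without the second Gpr56 library (0.051). Taking the transcript of each gene with the most reads in place of the gene's sum gave Tpm1 a log2 fold change of 0.03. By transcript, the most-read Tpm1 isoform ENSMUST00000113697 took 58.6% and 57.9% of the gene's reads in empty-vector cells and 65.9% and 64.2% in Gpr56 cells, while ENSMUST00000113707 took 19.8% and 21.1% and then 8.82% and 4.04%. How the authors shared reads among isoforms is not given in the sources used here. Tpm3, Tpm4, Cald1, Cnn2, Tagln and Tagln2 did not pass, with log2 fold changes from -0.10 to 0.15.

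At adhesions and cross-links the genes moved in both directions. Vcl, which encodes vinculin, the protein that links talin to actin in focal adhesions, was read at 222 and 213.5 CPM in empty-vector cells and 255 and 264 CPM in Gpr56 cells, with no overlap (0.25, SE 0.06, edgeR adjusted p = 0.00369). Zyx, or zyxin, a LIM protein recruited to strained stress fibres, went from 170.2 and 166 CPM to 137.4 and 137.1 CPM (-0.29, SE 0.06, edgeR adjusted p = 0.00165), again with no overlap. Lima1, or EPLIN, which ties actin to adherens junctions, went from 42.2 and 39.4 CPM to 34.2 and 32.5 CPM (-0.28, SE 0.08, edgeR adjusted p = 0.0242), also with no overlap. The Vcl call was lost without the second empty-vector library (adjusted p = 0.0767). The Lima1 call was lost without either empty-vector library (0.266 and 0.0806), without the second Gpr56 library (0.0571) and in the DESeq2 Wald test (0.119). The filament bundlers and motors Actn1, Actn4, Flna and Myh9 had log2 fold changes from -0.04 to 0.01 and did not pass. Neither did Fhl2, Pdlim5, Pdlim7, Cfl1, Pfn1, Filip1l or Tuft1, which ranged from -0.24 to 0.19. These calls rest on the narrow spread of the 4T1 libraries (biological coefficient of variation 5.47%, against 14.7% over all 8). In the fit of all 8 libraries 2 members fell and 0 rose, and the same counts came from the most-read transcript of each gene. Leaving out the first empty-vector library gave 1 rise and 4 falls, and leaving out the second gave 0 and 3. Without the first Gpr56 library Pfn1 also rose, and without the second Fhl2 also rose and Tuft1 fell.

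**Figure D3:**
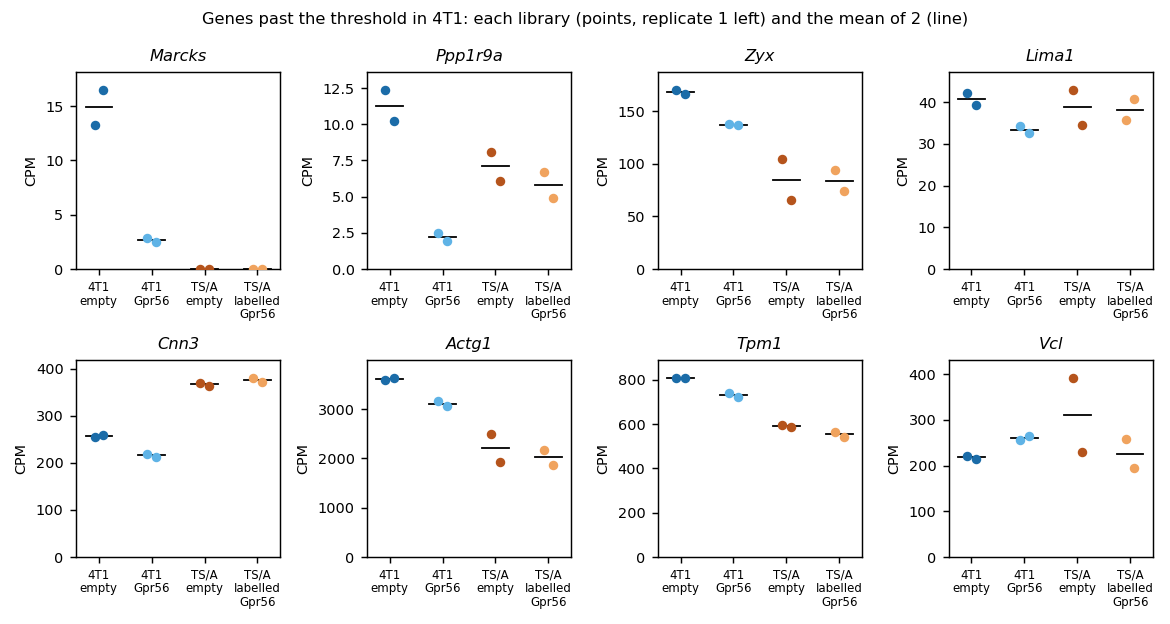
CPM in each library (points, replicate 1 on the left) and the mean of 2 (line) for the 8 genes past the threshold in 4T1, with y axes from 0. In 4T1 the groups do not overlap in any of the 8 panels. In TS/A they overlap for Ppp1r9a, Zyx, Lima1, Actg1 and Vcl, and for Marcks, which has almost no reads there.

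Genes around the pathway showed no common direction in 4T1. Of the 6 tested SRF cofactors (Mkl1 and Mkl2, the older names of Mrtfa and Mrtfb, with Elk1, Elk3, Elk4 and Scai) 0 passed. The most abundant, Elk3 and Elk4, stood at 126 ± 0.124 against 138 ± 3.31 CPM and at 23.9 ± 0.621 against 26.9 ± 1.45 CPM. Of 11 immediate early SRF targets 4 rose and 1 fell. Junb, an AP-1 subunit, rose from 230.4 ± 46.5 to 349 ± 34.3 CPM (0.60, SE 0.10, edgeR adjusted p = 4.84e-04) and Dusp1, a MAP kinase phosphatase, from 18.3 ± 0.190 to 25.7 ± 0.323 CPM. Mcl1, a survival factor of the BCL2 family, fell from 219.5 ± 4.27 to 186 ± 6.68 CPM. Of 11 other myosin genes 1 rose and 2 fell. Myh14, the heavy chain of non-muscle myosin IIC, rose from 6.30 ± 0.322 to 20.6 ± 0.484 CPM (1.70, SE 0.14, edgeR adjusted p = 7.56e-07), and the regulatory light chain Myl12a fell from 229.0 ± 1.14 to 167 ± 13.5 CPM.

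Of 30 actin assembly and turnover genes 6 rose and 4 fell. Gsn, or gelsolin, a severing and capping protein, rose from 267.5 ± 4.94 to 372 ± 6.76 CPM and the capping protein Capg from 326 ± 7.99 to 398 ± 7.01 CPM. Tmsb4x, thymosin beta-4, which sequesters actin monomers, fell from 116 ± 9.28 to 60.6 ± 4.12 CPM (-0.93, SE 0.07, edgeR adjusted p = 4.81e-07) and the cofilin Cfl2 from 93.7 ± 0.132 to 72.8 ± 0.600 CPM. Of 20 focal adhesion genes 4 rose, Lasp1 (378 ± 4.97 to 461 ± 18.3 CPM) and Lpp (48.95 ± 2.78 to 61.9 ± 1.5 CPM) among them, and 1 fell, Tln2, a talin (34.5 ± 0.718 to 28.0 ± 3.17 CPM). Of 21 further cross-linkers and membrane linkers 4 rose and 0 fell, with Flnc, a filamin, at 214 ± 15.5 against 308 ± 1.20 CPM and Msn, or moesin, at 1717 ± 16.1 against 2193 ± 55.9 CPM. Median log2 fold changes of these 6 lists ran from -0.02 to 0.15, with 0.00 over all genes. No list was tested as a whole, and the shares to read these counts against are the 11.5% of all genes that rose and the 11.3% that fell.

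Cell type markers, those of epithelium included, moved in the same comparison, and their part in these results was not tested. Of 7 epithelial markers 6 rose in 4T1, and their summed level was 2127 to 2141 CPM in empty-vector cells and 2867 to 2971 CPM in Gpr56 cells. Krt14, the 1 tested of 6 basal or myoepithelial markers, rose from 46.8 ± 0.106 to 72.1 ± 0.533 CPM. Among 8 immune markers the 1 tested, Cd68, rose from 6.61 ± 0.0428 to 15.4 ± 2.80 CPM, while Ptprc, the pan-leukocyte marker, was at 0 to 0.169 CPM and Adgre1 and Cd3e had no read in any library. The 8 fibroblast markers summed to 15.3 to 15.5 CPM and then 8.57 to 9.38 CPM, and Pdgfra fell from 13.3 ± 0.00758 to 8.10 ± 0.206 CPM, with Lum, Fap and Thy1 at 0 in all 8 libraries.

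In TS/A, 0 of 29 members passed between the libraries labelled Gpr56 and the empty-vector libraries (edgeR quasi-likelihood test on the 4 TS/A libraries, 0.0% of 11276 genes called). At an unadjusted p under 0.05 there was 1 member of 29, against 1.02% of genes (115). It was Tagln (-1.43, SE 0.58), named after its values were seen. Tagln had only 21 and 9 reads in empty-vector TS/A and 7 and 5 in TS/A labelled Gpr56. The DESeq2 Wald test called 0 members and 3 genes. The groups did not overlap for 8 of 29 members, 6 lower and 2 higher, which is 27.6% against 21.7% of all genes (10.4% lower, 11.3% higher). In the fit of all 8 libraries 0 members passed too, with 0.00835% of genes called, all of them lower. Actg1 was read at 2497 and 1925 CPM in empty-vector cells and 2165 and 1871 CPM in the libraries labelled Gpr56, and Actb at 2472 and 2223 CPM against 2485 and 2191 CPM. For both actins the groups overlapped. Srf stood at 53.5 and 41.5 CPM against 47.2 and 34.1 CPM (-0.22, SE 0.23). Ppp1r9a stood at 8.12 and 6.09 CPM against 6.70 and 4.94 CPM (-0.29, SE 0.28), and Marcks had 0 reads in 3 TS/A libraries and 1 read in the other. Zyx, at 104 and 65.9 CPM against 93.9 and 73.9 CPM, and Lima1, at 42.9 and 34.6 CPM against 35.7 and 40.7 CPM, also overlapped. Cnn3 stood at 370.3 and 363.5 CPM against 381 and 371 CPM and Tpm1 at 597 and 588 CPM against 563 and 543 CPM, neither with overlap and neither past the threshold. Vcl stood at 391.7 and 229.6 CPM against 258 and 194 CPM (-0.46, SE 0.29, edgeR adjusted p = 1.0). Without the second empty-vector library its log2 fold change was -0.77. That second library, at 229.6 CPM, lay between the 2 libraries labelled Gpr56. Vcl, without that second library, was the 1 member to pass in any of the alternatives run for this comparison.

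**Figure D4:**
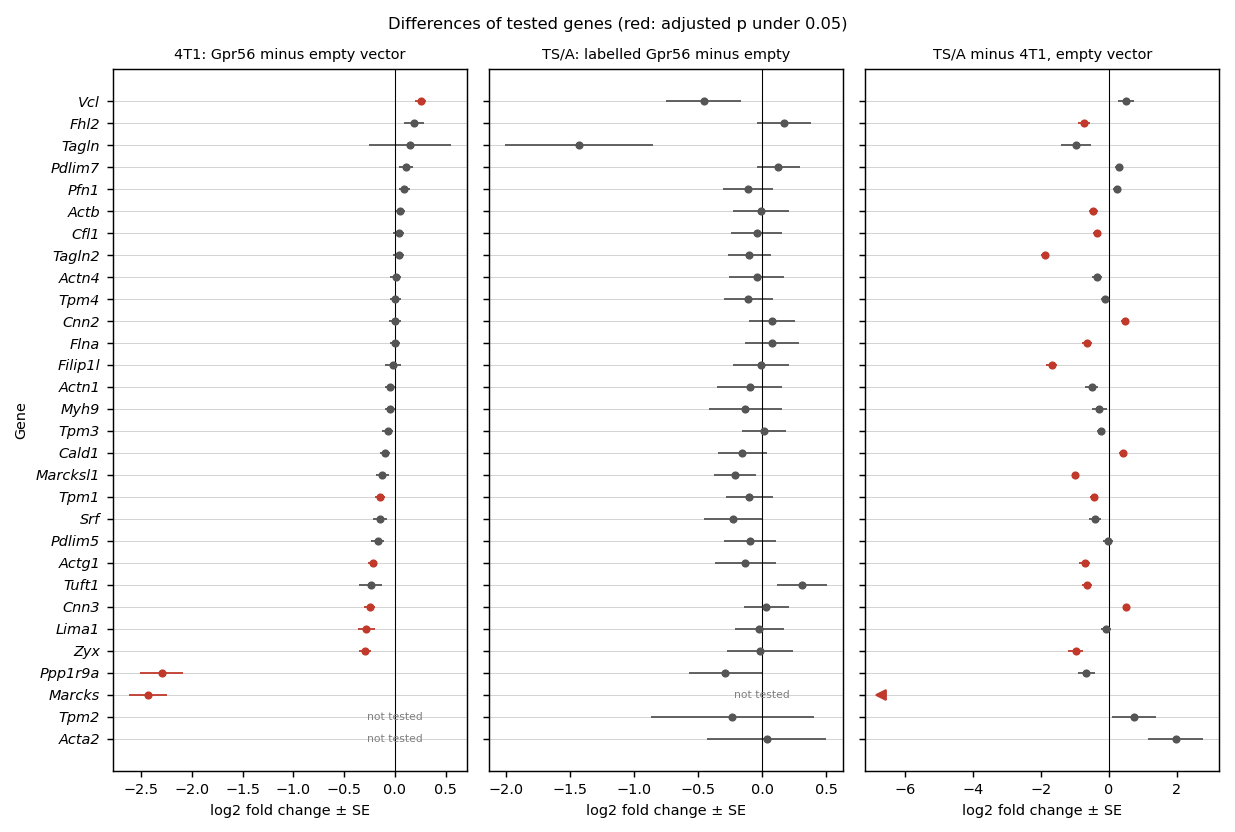
Log2 fold change with its SE (x axis) of each tested gene (y axis, ordered by the 4T1 values) in 4T1, in TS/A and between the lines, with red for adjusted p under 0.05; each panel has its own scale. In 4T1 Marcks and Ppp1r9a lie far to the left of the rest, in TS/A no gene is red, and between the lines the arrow for Marcks marks a bound of -6.71.

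The 2 empty-vector libraries of TS/A differed in many of these genes. The 4 genes with the widest ratios, named after their values were seen, had log2 ratios of the first over the second TS/A empty-vector library of 0.79 for Myh9 (non-muscle myosin IIA heavy chain), 0.77 for Vcl, 0.66 for Actn1 (alpha-actinin, a filament cross-linker) and 0.66 for Zyx. Myh9 was read there at 679 and 392.1 CPM, and at 505.5 and 470.2 CPM in the 2 libraries labelled Gpr56. The first library was the higher for 22 of 30 members (73.3%, against 53.2% of all genes) and the highest of all 4 TS/A libraries for 17 of 30 (56.7%, against 40.1%). Between the 2 libraries labelled Gpr56 the first was the higher for 22 of 30 as well, against 49.0% of all genes. Over all genes, the ratio of the 2 empty-vector libraries moved with transcript length. Across 11968 genes, which are not independent replicates and share both libraries, Pearson's r of that ratio with log2 length was 0.542, against 0.00191 to 0.0926 in the other groups. Across the 30 members it was 0.484, against 0.281 in empty-vector 4T1, 0.225 in Gpr56 4T1 and 0.0506 in TS/A labelled Gpr56. With all genes split by length into 4 equal groups, the shortest had a median log2 ratio of -0.36 and the longest 0.41. The 9 members in the shortest group had a median of 0.02 and the 5 in the longest, Myh9, Vcl, Flna, Pdlim5 and Ppp1r9a, one of 0.40. The part of length in the members' spread was not tested further. In 4T1 the same 2-library ratio had a median of -0.02 over the members.

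**Figure D5:**
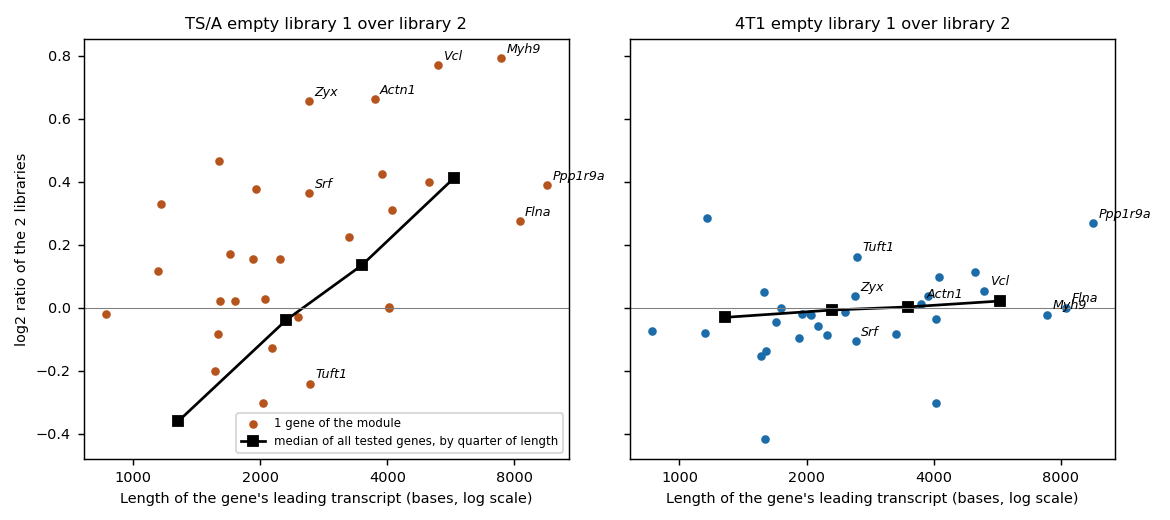
Log2 ratio of the 2 empty-vector libraries (y axis) against the length of each gene's most-read transcript in bases (x axis, log scale), for TS/A on the left and 4T1 on the right; circles are the 30 tested genes, squares the medians of all tested genes in 4 equal groups of length. In TS/A the squares climb from -0.36 to 0.41, while in 4T1 they stay between -0.03 and 0.02.

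The comparison of the lines, on empty-vector libraries of both, gave more calls than either vector comparison. Of 30 members tested, 12 were lower in TS/A and 3 higher (edgeR quasi-likelihood test on all 8 libraries, adjusted p under 0.05 over 11970 genes), which is 50% against 47.4% of all genes. At an unadjusted p under 0.05 there were 19 (63.3%, against 55.3%). Lower calls made up 40.0%, against 23.5% of all genes, and higher calls 10% against 23.9%. As the members were chosen with earlier results of these data known, these shares are not a test of the set. The median log2 difference was -0.38 over the members and 0.01 over all genes. The groups did not overlap for 26 of 30 members, 19 lower and 7 higher (86.7%, against 72.6%, with 36.6% lower and 35.9% higher). The line test shared 1 spread (biological coefficient of variation 14.7%), against 5.47% in 4T1 and 19.55% in TS/A fitted apart. With 1 variance per group 10 members were lower and 3 higher (4155 genes called). With the 4 empty-vector libraries alone it was 8 and 3 (3713 genes called). Leaving out the first TS/A empty-vector library gave 18 lower and 4 higher, and leaving out the second gave 13 and 5. Without either 4T1 empty-vector library 8 were lower, and 0 or 1 higher.

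Both cytoplasmic actins were lower in TS/A. Actb, at 2472 and 2223 CPM, lay below its 3124 and 3339 CPM in 4T1 (-0.46, SE 0.13, edgeR adjusted p = 0.0206), and Actg1, at 2497 and 1925 CPM, below 3585 and 3633 CPM (-0.71, SE 0.16, edgeR adjusted p = 0.00706). Without the first TS/A empty-vector library Actb differed by -0.54 and Actg1 by -0.91, and without the second by -0.39 and -0.54. With the 4 empty-vector libraries fitted alone the adjusted p was 0.106 for Actb and 0.0544 for Actg1. Without the first or the second 4T1 empty-vector library it was 0.0823 or 0.139 for Actb. Srf did not pass (-0.41, SE 0.18, edgeR adjusted p = 0.0987), but did without the first TS/A empty-vector library (-0.60, edgeR adjusted p = 0.00501).

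The 6 largest decreases among called genes were those of Marcks, Tagln2, Filip1l, Marcksl1, Zyx and Fhl2. Marcks had 0 reads in both TS/A empty-vector libraries against 236 and 351 in 4T1, at least 105-fold lower when 3 reads per library are taken as the floor. Marcksl1 stood at 51.8 and 51.1 CPM in TS/A against 96.9 and 106.7 CPM (-0.98, SE 0.11, edgeR adjusted p = 2.65e-04). Tagln2, the non-muscle transgelin, stood at 166 and 176 CPM against 636 and 614 CPM in 4T1, 3.65-fold lower (-1.87, SE 0.12, edgeR adjusted p = 8.60e-06). It was likewise low in the libraries labelled Gpr56, at 159 and 160.5 CPM, and high in Gpr56 4T1, at 676 and 605 CPM. Filip1l, a filamin-interacting protein, stood at 14.3 and 12.2 CPM against 41.5 and 43.9 CPM, 3.22-fold lower (-1.69, SE 0.16, edgeR adjusted p = 7.95e-05). Zyx stood at 104 and 65.9 CPM against 170.2 and 166 CPM (-0.98, SE 0.21), and Fhl2, a LIM-only coregulator, at 19.6 and 22.7 CPM against 33.3 and 37.1 CPM (-0.74, SE 0.17). For each of these 6 genes both TS/A libraries lay below both 4T1 libraries. Fhl2 lost its call without the second 4T1 empty-vector library (adjusted p = 0.0671). The other lower calls, Tuft1, Flna, Tpm1 and Cfl1, ranged from -0.65 to -0.35. Without the first or the second 4T1 empty-vector library the calls of Tpm1 (0.0779 or 0.0767) and Cfl1 (0.134 or 0.213) were lost, and without the first that of Tuft1 (0.0808). By the most-read transcript Tpm1 differed by -0.88.

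The 3 higher genes were thin-filament regulators, the calponins Cnn2 and Cnn3 and the caldesmon Cald1, which restrain myosin on actin. Cnn3 stood at 370.3 and 363.5 CPM in TS/A against 254 and 258.5 CPM in 4T1 (0.52, SE 0.10, edgeR adjusted p = 0.00385). Cnn2, whose promoter is printed above, stood at 251 and 256 CPM against 182.5 and 184 CPM (0.47, SE 0.11, edgeR adjusted p = 0.00883). Cald1 stood at 629.8 and 629.4 CPM against 469 and 481 CPM (0.41, SE 0.11, edgeR adjusted p = 0.0164). The lines did not overlap for any of the 3. Without the first 4T1 empty-vector library the adjusted p was 0.0544 for Cnn3, 0.0811 for Cnn2 and 0.131 for Cald1, and without the second it was 0.0767 for Cnn2 and 0.108 for Cald1. By the most-read transcript Cald1 differed by 1.05. The 3 genes were also above 4T1 in the TS/A libraries labelled Gpr56, at 381 and 371 CPM, 286 and 249.9 CPM, and 539 and 595 CPM.

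Beside the 23.9% of all genes called higher in TS/A and the 23.5% called lower, other lists were counted as follows. Immediate early SRF targets were higher in TS/A for 7 of 13, with 0 lower and a median log2 difference of 0.69, among them Junb (0.77, SE 0.16, edgeR adjusted p = 0.00499) and Mcl1 (0.67, SE 0.11, edgeR adjusted p = 0.00173). Of 20 focal adhesion genes 2 were higher and 8 lower, and of 21 further cross-linkers 6 and 9. All 7 epithelial markers were lower in TS/A, where Epcam (0 to 0.0820 CPM), Cdh1 (0 to 0.191 CPM) and Krt7 (0 to 0.457 CPM) were near 0. Krt18 was still read there at 148 to 204 CPM and Krt19 at 30.6 to 55.7 CPM. The labels call both lines breast cancer cells. Col1a1, a fibroblast collagen, stood at 311 and 138.5 CPM in the TS/A empty-vector libraries and 1.74 CPM in 4T1. Pdgfra, from the same list, stood at 15.0 and 8.40 CPM in the TS/A empty-vector libraries and at 13.3 CPM in both of 4T1. The other fibroblast markers, Col1a2, Col3a1, Dcn, Lum, Fap and Thy1, stood at 0 to 0.246 CPM in the TS/A empty-vector libraries. What these markers contribute to the difference between the lines was not tested.

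Whether the difference between the vector labels was unlike in the lines was tested directly. Since Adgrg1 was not higher in TS/A labelled Gpr56, this cannot test how an expressed vector acts in TS/A. In the interaction of line and vector over all 8 libraries 0 of 30 members passed (0.0668% of 11970 genes called, 0.0167% higher and 0.0501% lower). At an unadjusted p under 0.05 there were 3 members, Ppp1r9a, Tuft1 and Tagln (10%, against 6.4% of genes). Ppp1r9a came nearest, with a log2 difference of 2.02 (TS/A minus 4T1, SE 0.37, edgeR adjusted p = 0.227). It passed in the DESeq2 Wald test (adjusted p = 0.0047), without the first TS/A empty-vector library (2.25, edgeR adjusted p = 0.0112) and without the second (1.83, edgeR adjusted p = 0.00485). Without the second, 4 members named after their values were seen passed too: Actn1 (-0.35), Myh9 (-0.43) and Vcl (-1.04) as lower and Tuft1 (0.68) as higher, with 2391 genes called. Marcks, with 1 read over the 4 TS/A libraries, did not pass (edgeR adjusted p = 0.777).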

How the data were processed

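Per the file headers, the authors deposited whole-number read counts for each transcript, and beside them the RPKM. The deposited RPKM followed the counts in proportion for 100.0% of transcripts with at least 21 reads (tolerance 0.001). RNA came from RNeasy columns and libraries from TruSeq RNA v2 (per the labels' protocols), which does not mark strand. No aligner, counter or build was named (not given in the sources used here). Counts were summed to genes by name, and all 174 transcripts of the 36 genes carry the same symbol in GENCODE M21.

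Tests used edgeR 4.0.16 in R 4.3.3 (filterByExpr, TMM, glmQLFit, Benjamini-Hochberg over all genes). The vector comparisons used the 4 libraries of a line, and the line and interaction tests all 8. SE is the log2 fold change divided by the root of F. Alternatives were DESeq2 1.42.0 (size factors, Wald test), limma 3.58.1 voom, library totals, 2 other filters, a replicate block, the most-read transcript, other sets of libraries and each library left out. The steps of the vector comparisons were tested on simulated data with a common spread for all genes of a line. The simulation held no distortion like that of the TS/A empty-vector pair. The line and interaction tests were not simulated.

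The members, lists and the choice to fit lines apart were made with earlier results of these data known, Marcks and Ppp1r9a among them. Genes with values in every library are those past the threshold with either vector, Srf, the actins, and the 6 largest changes each way between lines; the rest appear as ranges, and other lists by up to 2 members each way by smallest p in 4T1. Nup98 was put among SRF cofactors in error and was left out. Promoters are from RefSeq (GRCm38.p6), which held windows for 30 of the 36; proteins were not used here. A further gene list and 1 marker are not reported here.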

Additional observations from a re-analysis of the deposited data

Results flagged for a closer look

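For Adgrg1, the vector's own gene, the difference between the vector labels was unlike in the lines, by -5.67 on the log2 scale (TS/A minus 4T1, SE 0.55, edgeR adjusted p = 0.0204, interaction of line and vector). Adgrg1 was not higher in the TS/A libraries labelled Gpr56, so a response of that line to an expressed vector was not tested. The basal keratin Krt14 also differed, by -1.95 (SE 0.23, edgeR adjusted p = 0.0368), at 46.7 and 46.8 CPM against 71.7 and 72.5 CPM in 4T1 and 1.93 and 1.72 CPM against 0.762 and 0.692 CPM in TS/A. Neither is one of the 36 genes.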

How the results depend on the processing

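Values were recomputed for the members called in the main fit of a comparison, and for Srf, Actb and Actg1 in every comparison. Other members without a main call were left out, so calls they gained under an alternative, such as Vcl in TS/A or Ppp1r9a in the interaction, are not counted. Of these 508 values, 438 kept their direction and their side of the threshold, 58 lost the call, 1 gained it (Srf between lines) and 11 changed sign. Of these 1 was called, Tpm1 in 4T1, at 0.0283 with the most-read transcript. The other 10 had no call to lose. With 1 library left out, Actb ran from -0.0884 to 0.0822 and Actg1 from -0.284 to 0.0641 in TS/A, and for the interaction Srf ran from -0.326 to 0.142, Actb from -0.152 to 0.0263 and Actg1 from -0.0847 to 0.289, the last also at -0.0366 with the most-read transcript. In 4T1 the most-read transcript gave 0 members higher and 2 lower, and 1 fit of all 8 libraries gave 0 and 2. Leaving out 1 library gave 0 to 2 higher and 3 to 7 lower in 4T1, 0 higher and 0 to 1 lower in TS/A, 0 to 5 higher and 8 to 18 lower between lines, and 0 to 2 higher and 0 to 3 lower for the interaction. The interaction had 1 member higher with DESeq2, with no filter and with the replicate block. No label pairs the libraries by replicate number, and same-numbered deviations correlated at 0.31 in TS/A, -0.02 in 4T1 and -0.06 to 0.03 otherwise. With the replicate block 1 member was higher and 6 lower in 4T1, 0 in TS/A, and 3 higher and 10 lower between lines. Under the block Tpm1 (adjusted p = 0.0863) lost its 4T1 call, Actb (0.127), Cald1 (0.0715) and Cfl1 (0.222) lost theirs between lines, and Vcl (0.00479) gained one there. Over all genes, the 2588 calls in 4T1 became 27 in the fit of all 8, 167 by most-read transcript, 1549 with DESeq2 and 1403 to 2748 with 1 library left out. The 0 in TS/A became 26 with the block, 3 with DESeq2, 4 with no filter, 1 in the fit of all 8 and 4 to 1140 with 1 left out. The 5674 between lines became 3713 with empty-vector libraries alone and 3335 to 7853 with 1 left out. The 8 of the interaction became 66 with DESeq2, 60 with no filter, 37 with the block, 4 with library totals, 4 with 1 variance per group, 0 with voom and 0 to 2391 with 1 left out. With library totals 60.9% of 4T1 calls were rises, against 50.5%; no scaling moved the median of all genes by over 0.05. Where a group was left with 1 library, that library is assumed to vary like the others. The 9 genes under 2 CPM are limited by depth.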
